A study of Homo sapiens with 2 samples.

Results

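HERVK is the youngest endogenous retrovirus family of the human genome, and 6 rows of the deposited tables stand for it here. They are the long terminal repeat (LTR) names LTR5-Hs, LTR5A, LTR5B and LTR5, the internal region HERVK-int, and the long non-coding RNA gene PCAT14. The first 5 were taken by name from 5833 repeat names and PCAT14 by symbol from 22474 genes, and all 6 had reads in both libraries. Single cells of H9, an established human embryonic stem cell line, were sequenced by Smart-seq2, which amplifies full-length copies of polyadenylated RNA without molecular barcodes. The ffEPSC library held 25 cells of feeder-free extended pluripotent stem cells, obtained by converting H9 cells, and the ESC library held 16 unconverted H9 embryonic stem cells. No genotype change, drug or time is given in the labels for either state. Each state was 1 deposited sample, cells of 1 sample are not replicates, and no test between the states was made.

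A retroviral LTR carries the promoter, enhancer and polyadenylation signal of the provirus, and the internal region between a pair of LTRs encodes the gag, pol and env proteins. LTR5-Hs is the LTR of the youngest HERVK (HML-2) insertions, which are specific to hominoids, while LTR5A and LTR5B belong to older insertions of the same lineage and LTR5 is a general record of the family. In early human embryos and naive-like pluripotent cells LTR5-Hs copies are known to be transcribed and to act as enhancers, with OCT4 as a known binder. PCAT14 (prostate cancer associated transcript 14) is a long intergenic non-coding RNA known from prostate tumours, and its locus lies in a HERVK provirus.

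PCAT14 covers bases 23536881 to 23547797 of the plus strand of chromosome 22 in GENCODE version 29 on GRCh38, where it is a lincRNA with 3 transcripts. The transcripts PCAT14-203 and PCAT14-201 have more than 1 exon, and PCAT14-202 is a single exon of 3935 bases.

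The libraries were of like depth. The ffEPSC library held 374101290 gene counts, from 12507469 to 17811209 a cell, and 179248893 repeat counts. The ESC library held 265412149 gene counts, from 11714517 to 19965639 a cell, and 129041480 repeat counts, and repeat counts per 100 gene counts were 47.9 in ffEPSCs and 48.6 in ESCs. Levels are the counts of all cells of a library together, scaled to its total gene counts (CPM) or, for repeats, to its total repeat counts (repeat CPM). Log2 ratios are ffEPSC over ESC after adding 1 CPM, plain folds add nothing, and 95% intervals are exact and cover counting error only. Of the markers chosen for the cell states, 5 of 5 of pluripotent cells were measured in both states, at a summed 2671 CPM in ffEPSCs and 2406 CPM in ESCs. All 4 listed naive markers were 2-fold or more higher in ffEPSCs (305 CPM summed, against 7.66 CPM in ESCs), with DNMT3L alone at 261 CPM. By the set number in the cell names, TFCP2L1 had a log2 ratio of 3.74 within set 1 and 0.14 within set 3. Of 5 primed markers 3 were at least 2-fold lower, but OTX2 (-1.44) had -0.27 and -0.18 within these sets. Among 10825 genes with at least 5 CPM in 1 library, 8.3% were 2-fold or more higher and 5.84% lower. The 8-cell markers ZSCAN4, LEUTX, DUXA and TPRX1 were not among the genes listed. Of 4 fibroblast or feeder markers 3 were at least 2-fold lower in ffEPSCs, with 187 CPM summed in ffEPSCs and 444 CPM in ESCs. Most of both sums was THY1, at 169 CPM in ffEPSCs and 382 CPM in ESCs. COL1A1 was at 2.28 and 8.67 CPM, COL1A2 at 15.3 and 19.2 CPM and S100A4 at 0.460 and 34.2 CPM. The part of feeder cells in the ratios below was not tested.

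Transcripts of the youngest HERVK copies were far more abundant in ffEPSCs than in ESCs, and this held in each cell. LTR5-Hs, the young LTR, stood at 2881, 10406 and 16494 repeat CPM in the lowest, median and highest of the 25 ffEPSC cells, against 43.9, 291 and 699 repeat CPM in the 16 ESC cells. The groups did not overlap, and the lowest ffEPSC cell lay above the highest ESC cell. Summed over cells, LTR5-Hs made up 1.04% of repeat counts in ffEPSCs and 0.0287% in ESCs (10430 repeat CPM, interval 10415 to 10444, and 287 repeat CPM, 284 to 290). This is a 36.3-fold difference with an interval of 36.0 to 36.7 (log2 ratio 5.18).

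HERVK-int, the gag, pol and env region, followed the same pattern. It was at 3197, 11956 and 27386 repeat CPM in the lowest, median and highest ffEPSC cell and at 126, 721 and 1722 repeat CPM in the ESC cells. Again all 25 ffEPSC cells lay above all 16 ESC cells. The summed levels were 12977 repeat CPM in ffEPSCs and 761 repeat CPM in ESCs, a 17.1-fold difference (interval 16.9 to 17.2, log2 ratio 4.09). The 5 repeat rows together took 2.39% of repeat counts in ffEPSCs and 0.126% in ESCs.

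The older LTR types were higher in ffEPSCs too, but by smaller factors and with overlapping cells. LTR5A was at 82.9, 220 and 427 repeat CPM in the lowest, median and highest ffEPSC cell and at 11.6, 96.5 and 229 repeat CPM in the ESC cells. Its summed levels of 209 repeat CPM in ffEPSCs and 110 repeat CPM in ESCs gave a 1.90-fold difference (1.86 to 1.94). Only 10 of 25 ffEPSC cells lay above all ESC cells. LTR5B was at 34.0, 131 and 233 repeat CPM in ffEPSC cells and at 9.40, 44.7 and 113 repeat CPM in ESC cells, with a 2.76-fold difference (2.68 to 2.84) between summed levels of 126 and 45.6 repeat CPM. The general LTR5 record was at 41.8, 141 and 235 repeat CPM in ffEPSC cells and at 7.55, 52.4 and 148 repeat CPM in ESC cells, with a 2.42-fold difference (2.35 to 2.48). Of the ffEPSC cells, 15 lay above all ESC cells for LTR5B and 9 for LTR5.

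PCAT14 was low or without reads in ESC cells and well expressed in most ffEPSC cells. It was at 0, 151 and 339 CPM in the lowest, median and highest ffEPSC cell and at 0, 0.111 and 12.9 CPM in the ESC cells. Of the ffEPSC cells, 23 of 25 lay above all ESC cells, and the other 2, at 0 and 0.738 CPM, lay within the ESC range. Reads were present in 24 of 25 ffEPSC cells and 9 of 16 ESC cells, and these counts were the same after thinning each cell to 10000000 gene counts. At least 100 CPM was reached in 19 ffEPSC cells and 0 ESC cells. The summed levels of 134 CPM in ffEPSCs and 2.17 CPM in ESCs gave a 61.7-fold difference (interval 56.8 to 67.1). On the log2 scale the ratio was 5.41, which the added 1 CPM holds down at so low an ESC level.

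**Figure D1:**
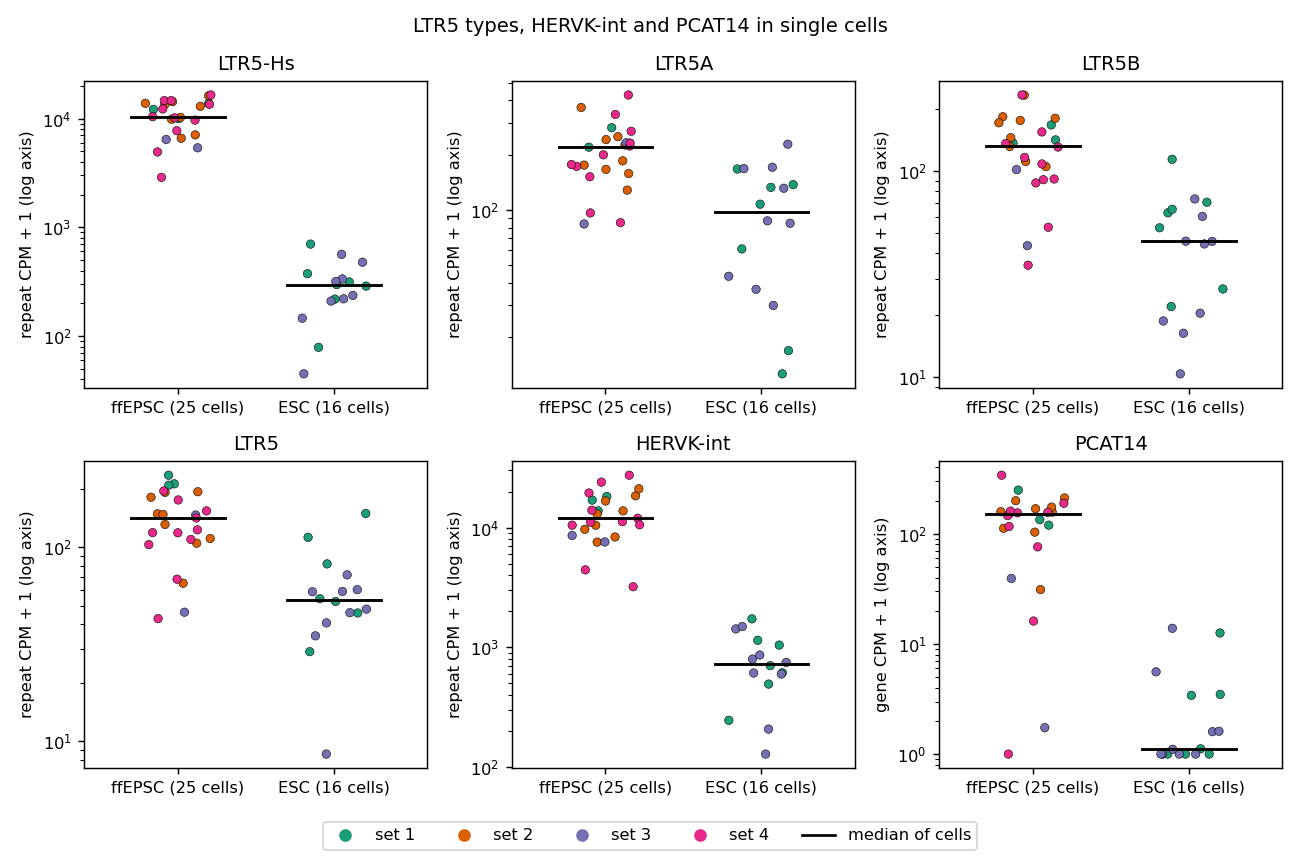
Level of each HERVK row in single cells (log axes, repeat CPM + 1 or gene CPM + 1), with ffEPSC cells left and ESC cells right, points coloured by the set number in the cell name and bars at the median of cells. LTR5-Hs and HERVK-int separate all 25 ffEPSC cells from all 16 ESC cells, PCAT14 separates 23 of them, and the older LTR types overlap.

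Among all names of transposable elements and satellites, 394 reached 100 repeat CPM in at least 1 library, and 3.81% of them were 2-fold or more higher in ffEPSCs, while 0.508% were lower by that much. The HERVK rows supplied 4 of the 15 higher names, with LTR5A just short of 2-fold. By log2 ratio LTR5-Hs ranked 1, HERVK-int 3, LTR5B 10, LTR5 12 and LTR5A 16 of 394, where the median repeat had a ratio of 0.18. Every ffEPSC cell above every ESC cell was found for 0.761% of the names, which are the 3 names LTR5-Hs, HERVK-int and SVA-F. Among 10825 genes with at least 5 CPM in 1 library, 8.3% reached 2-fold upward and 5.84% downward in ffEPSCs, and PCAT14 ranked 9 by ratio.

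**Figure D2:**
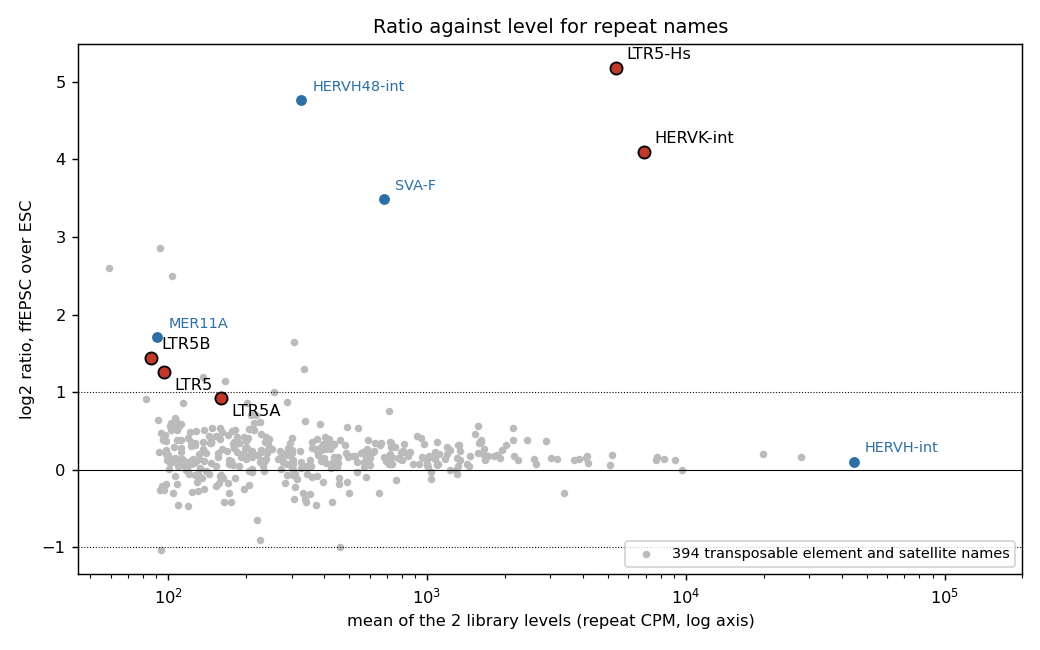
Log2 ratio of ffEPSC over ESC against the mean of both library levels (repeat CPM, log axis) for 394 repeat names, with dotted lines at 2-fold. LTR5-Hs (5.18) and HERVK-int (4.09) lie far above the bulk of names, and LTR5B, LTR5 and LTR5A lie near the 2-fold line.

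The young and old LTR types thus made up different shares of LTR5 counts in each state. LTR5-Hs took 95.7% of 1953896 LTR5 counts in ffEPSCs (Clopper-Pearson interval 95.65 to 95.71) and 57.5% of 64389 in ESCs (57.1 to 57.9). In single cells its share ran from 92.7% to 97.7% in ffEPSCs and from 13.8% to 86.0% in ESCs, so the groups did not overlap. LTR5A took 1.92% in ffEPSCs and 22.04% in ESCs, LTR5B 1.15% and 9.14%, and LTR5 1.25% and 11.3%. Of the summed ffEPSC minus ESC difference of the 4 LTR rows, 97.5% lay in LTR5-Hs. Internal counts per LTR5-Hs count were 1.24 in ffEPSCs, with cells from 0.714 to 2.02, and 2.65 in ESCs, with cells from 0.873 to 8.997. The balance of internal to LTR counts thus overlapped between the states in single cells.

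**Figure D3:**
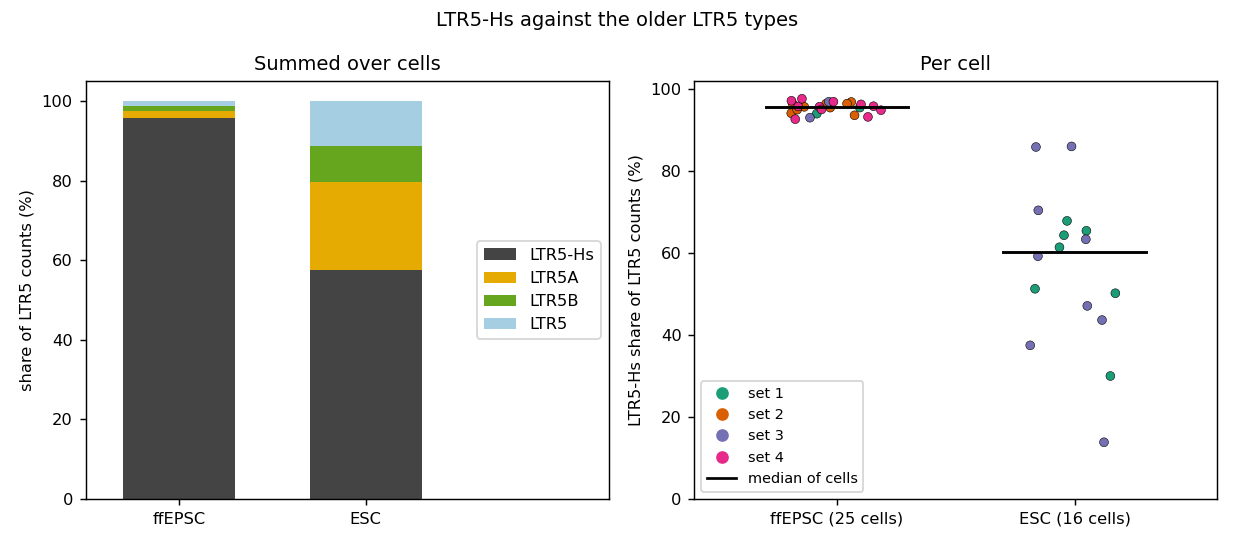
Share of LTR5 counts (%) by LTR type summed over the cells of each library (left) and the LTR5-Hs share in single cells with the median (right), ffEPSC before ESC. LTR5-Hs is 95.7% of LTR5 counts in ffEPSCs and 57.5% in ESCs, and the ESC cells spread from 13.8% to 86.0%.

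Both set numbers that hold cells of both states gave the same direction for all 6 rows. Set 1 had 3 ffEPSC and 7 ESC cells and set 3 had 2 ffEPSC and 9 ESC cells, and the sources used here do not say what a set is. The log2 ratio of LTR5-Hs was 5.15 within set 1 and 4.53 within set 3, and that of HERVK-int was 4.26 and 3.54. For the older types the values within set 1 and set 3 were 1.29 and 0.50 for LTR5A, 1.33 and 1.002 for LTR5B, and 1.68 and 1.03 for LTR5. PCAT14 had 5.70 within set 1 and 2.78 within set 3, where 1 of the 2 ffEPSC cells was at 0.738 CPM.

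The ffEPSC cells closest to ESCs in the expression of whole chromosomes had lower median levels of LTR5-Hs, HERVK-int and PCAT14 than the rest. They were picked by chromosome shift, and not each of them was low in HERVK RNA. Genes on chromosomes 5, 11, 14, 20 and 22 had median log2 ratios of 0.29 to 0.44 in ffEPSCs, with 0.44 on chromosome 22, where PCAT14 lies. In 5 of 25 ffEPSC cells the shift was under 0.3 (log2, against the mean of ESC cells) both as the mean over these chromosomes and on chromosome 5. In 2 further ffEPSC cells the mean, but not chromosome 5, was under 0.3, and they are counted with the other 20. LTR5-Hs was at 2881, 5385 and 9987 repeat CPM in the lowest, median and highest of these 5 cells, against 6599, 12615 and 16494 repeat CPM in the other 20 ffEPSC cells. PCAT14 was at 0, 15.1 and 119 CPM in the 5 cells and at 30.1, 156 and 339 CPM in the other 20. HERVK-int was at 3197, 7576 and 18205 repeat CPM in the 5 cells and at 7554, 13381 and 27386 repeat CPM in the 20. The 2 ffEPSC cells within the ESC range of PCAT14 were among the 5, and all 3 rows overlapped between the 5 and the 20 cells. Measured against all ESC cells, the 5 cells alone still had log2 ratios of 4.36 for LTR5-Hs, 3.48 for HERVK-int and 3.45 for PCAT14. The 2 further cells were at 10174 and 10406 repeat CPM of LTR5-Hs and at 151 and 188 CPM of PCAT14, within the range of the remaining 18. With all 7 cells under 0.3 in the mean, PCAT14 was at 0, 38.3 and 188 CPM in the lowest, median and highest, and its log2 ratio against all ESC cells was 4.51. The part of the chromosome shift in these levels was not tested.

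In the ESC library, 4 of 16 cells were under 300 CPM of POU5F1. LTR5-Hs was at 77.6, 382 and 563 repeat CPM in the lowest, median and highest of them and at 43.9, 266 and 699 repeat CPM in the other 12 ESC cells. HERVK-int was at 698, 1228 and 1484 repeat CPM in the 4 cells and at 126, 608 and 1722 repeat CPM in the other 12. Both rows overlapped between these ESC cells. Without the 4 cells the log2 ratios were 5.28 for LTR5-Hs, 4.32 for HERVK-int and 5.69 for PCAT14.

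LTR5-Hs and HERVK-int moved together from cell to cell within each state. On log2 levels after adding 1 CPM, Pearson r was 0.87 and Spearman rho 0.83 over the 25 ffEPSC cells, and 0.70 and 0.77 over the 16 ESC cells. These correlations, and those below, describe cells of 1 library that share its preparation, and cells are not replicates. Over the other 20 ffEPSC cells, without the 5 of small shift, r was 0.73, and over the 18 cells at or above 0.3 in the mean it was 0.72. Among the older types, LTR5B and LTR5 had an r of 0.81 over the ffEPSC cells. LTR5-Hs had an r of 0.77 with LTR5, 0.68 with LTR5B and 0.37 with LTR5A over these cells. In the ESC cells the same pairs had -0.27, 0.08 and -0.08. Reads of LTR5-Hs copies counted for the older types, or the reverse, were not tested.

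PCAT14 followed LTR5-Hs mainly through the few cells where both were low. Over 25 ffEPSC cells r was 0.80 with LTR5-Hs and 0.71 with HERVK-int, but rho was 0.39 and 0.37. Without the 5 cells of small shift r was 0.29 with LTR5-Hs and 0.27 with HERVK-int over the other 20, and over the 18 cells at or above 0.3 in the mean it was 0.31 and 0.30. Leaving out only the 2 ffEPSC cells farthest from the median of PCAT14 gave 0.63 and 0.58. In the 16 ESC cells r was -0.12 with LTR5-Hs and 0.09 with HERVK-int, at levels near 0 for PCAT14. PCAT14 counts per 100 HERVK-int counts were 2.15 in ffEPSCs and 0.587 in ESCs. Subtracting them from HERVK-int left r at 0.69 over the ffEPSC cells. At so small a share the subtraction could change r little, and reads shared between the rows were not tested.

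**Figure D4:**
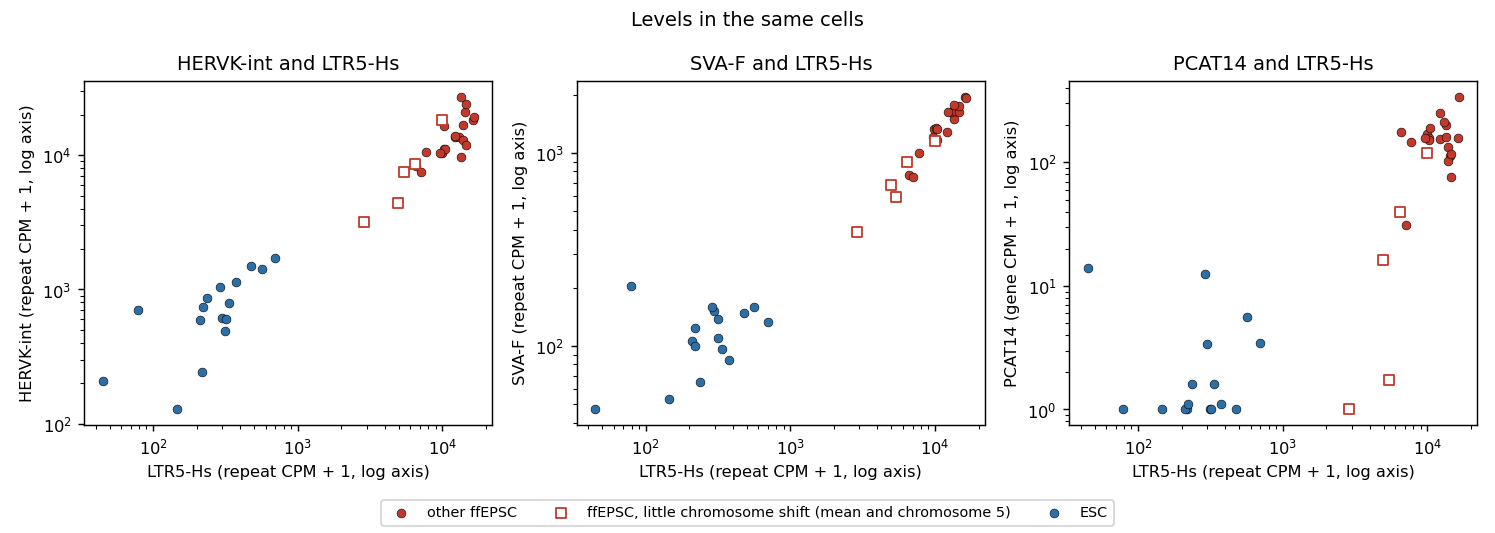
Levels of HERVK-int, SVA-F and PCAT14 against LTR5-Hs in the same cells (log axes, CPM + 1), with the 5 ffEPSC cells whose chromosome shift was under 0.3 in the mean and on chromosome 5 as open squares, the other 20 ffEPSC cells in filled red, and 16 ESC cells in blue. HERVK-int and SVA-F are higher in ffEPSC cells where LTR5-Hs is higher, and for PCAT14 r is 0.80 with the open squares and 0.29 without them.

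The repeat row most like LTR5-Hs was SVA-F, with an r of 0.98 over 25 ffEPSC cells and 0.96 over the 20 without the cells of small shift, out of 384 rows compared. SVA elements are composite retrotransposons whose SINE-R part derives from HERVK, so reads of either kind of copy can be alike in sequence. SVA-F was at 389, 1334 and 1953 repeat CPM in the lowest, median and highest ffEPSC cell and at 45.7, 116 and 202 repeat CPM in the ESC cells, with no overlap (log2 ratio 3.49). SVA-F counts per 100 LTR5-Hs counts lay between 10.6 and 13.9 in all 25 ffEPSC cells, while they ran from 18.9 to 260 in the ESC cells. Reads counted for SVA-F but coming from LTR5-Hs copies, or the reverse, were not tested, and the sources used here do not say how multi-mapping reads were counted. In the ESC cells SVA-F and LTR5-Hs had an r of 0.44.

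The other SVA names were closer between the states. Of 6 names 4 were measured, SVA-F alone reached 2-fold upward and 0 reached it downward, with a median log2 ratio of 0.67 against 0.18 over all repeats. Among all 394 repeat names 3.81% were 2-fold or more higher and 0.508% lower. SVA-A was at 271 repeat CPM in ffEPSCs and 165 repeat CPM in ESCs (log2 ratio 0.71), SVA-E at 130 and 83.6 repeat CPM (0.63), and SVA-D at 108 and 82.8 repeat CPM (0.38). Their r with LTR5-Hs over ffEPSC cells was 0.39 for SVA-A, 0.16 for SVA-E and 0.25 for SVA-D.

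Related retroviruses of the ERVK class had smaller ratios than LTR5-Hs and HERVK-int, and some had larger ratios than the older LTR5 types. Of 37 other ERVK names 7 were measured, 3 were higher by 2-fold or more and 0 lower, with a median log2 ratio of 0.34. Over all 394 repeat names 3.81% were higher by that much and 0.508% lower, with a median of 0.18. MER11A, an LTR of the HERVK11 group, was at 140 repeat CPM in ffEPSCs and 42.1 repeat CPM in ESCs (log2 ratio 1.71), with 1.68 within set 1 and -0.12 within set 3. HERVK11-int, the internal region of that group, was at 477 repeat CPM in ffEPSCs and 193 repeat CPM in ESCs (1.302). HERVK9-int was at 229 and 104 repeat CPM (1.14). HERVK3-int was slightly lower, at 284 repeat CPM in ffEPSCs and 332 repeat CPM in ESCs (-0.22), as was LTR3, at 150 and 201 repeat CPM (-0.42). MER11A was the repeat row most like PCAT14 (r 0.92, rho 0.59 over 25 ffEPSC cells), with 0.34 over the other 20 cells. With LTR5-Hs, MER11A had an r of 0.84 over 25 ffEPSC cells and 0.36 over the other 20. With HERVK-int its r was 0.72 and 0.15 over the same cells. HERVK11-int and HERVK9-int had r of 0.11 and 0.08 with LTR5-Hs over the 25 cells.

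LTR7 and HERVH-int, the LTR and internal region of HERVH, the retrovirus known as a mark of human pluripotent cells, also stood near the head of the likeness lists, at nearly equal levels in both states. LTR7 was at 9690 repeat CPM in ffEPSCs and 9725 repeat CPM in ESCs (log2 ratio -0.01), and its r with LTR5-Hs was 0.70 over 25 ffEPSC cells, 0.18 over the other 20 and 0.33 over the 18 at or above 0.3 in the mean shift. HERVH-int was at 46099 and 42896 repeat CPM (0.10), and its r with HERVK-int was 0.73, 0.36 and 0.49 over the same cells.

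The genes nearest to PCAT14 had far smaller ratios, but among them only BCR and ZNF280B reached 5 CPM in a library. For the other neighbours the added 1 CPM holds the ratios toward 0. BCR, a signalling gene 219 kb upstream, was at 34.8 CPM in ffEPSCs and 20.2 CPM in ESCs (log2 ratio 0.75), and RAB36, a small GTPase gene, at 4.86 and 1.58 CPM (1.18). ZNF280B, a zinc finger gene, was at 28.8 and 35.9 CPM (-0.31). On the other side IGLL1, which encodes a surrogate immunoglobulin light chain and lies 25.3 kb away, was at 0.0588 CPM in ffEPSCs and 0.0151 CPM in ESCs. GUSBP11 was at 1.20 and 2.40 CPM (-0.63) and ZNF70 at 3.14 and 2.18 CPM (0.38). Over the 25 ffEPSC cells the r of the 10 neighbours with PCAT14 lay between -0.17 and 0.10, most of them at such low levels.

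**Figure D5:**
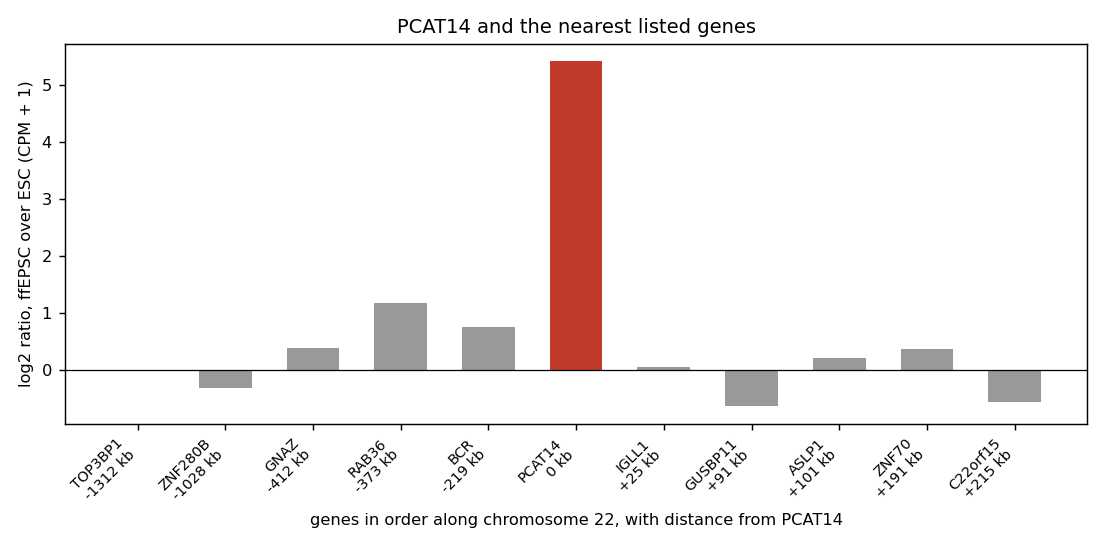
Log2 ratio of ffEPSC over ESC (CPM + 1) for PCAT14 in red and the 5 listed genes on each side of it along chromosome 22 in grey, in genome order with distances in kb. PCAT14 is at 5.41, and the neighbours lie between -0.63 and 1.18. Of the neighbours only BCR and ZNF280B reached 5 CPM in a library.

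Parts of PCAT14 resemble transcripts of other genes, which could share reads with it. Alignments of at least 500 bases and 80% identity were found with transcripts of 7 other genes, and 6 of these fell in the last part of PCAT14-202. The alignment to GSTM2, a glutathione transferase gene, covered 930 bases at 85.1% identity, that to SLC27A5, a bile acid and fatty acid CoA ligase gene, 831 bases at 85.4%, and that to ADI1, a methionine salvage enzyme gene, 730 bases at 84.4%. GSTM2 was at 5.42 CPM in ffEPSCs and 6.49 CPM in ESCs, SLC27A5 at 17.8 and 27.5 CPM, and ADI1 at 72.7 and 245 CPM. None of these 3 was higher in ffEPSCs. They were chosen by alignment after the values of PCAT14 were seen.

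Few other HERVK loci are named in the gene tables. Of 18 HERVK gene records 3 were listed and 2 measured. ERVK13-1 was at 5.40 CPM in ffEPSCs and 2.01 CPM in ESCs (log2 ratio 1.09), and ERVK3-1 at 9.90 and 14.4 CPM (-0.50). ERVK-28 was at 0.0588 CPM in ffEPSCs, with reads in 10 of 25 cells, and had 0 reads in ESCs, where a count of 0 allows up to 0.0113 CPM.

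Transcription factors known or proposed to act on LTR5-Hs were higher in part. Of 9 chosen activator genes 7 were measured, 3 reached 2-fold upward and 0 downward, with a median log2 ratio of 0.53 against 0.04 over all genes. Over all genes 8.3% were 2-fold or more higher in ffEPSCs and 5.84% lower. KLF4 and TFCP2L1 are also among the naive markers counted above. TFAP2C, the AP-2 gamma factor of naive cells, was at 85.7 CPM in ffEPSCs and 7.75 CPM in ESCs (3.31), and KLF4, a Krüppel-like factor, at 17.3 and 1.98 CPM (2.61). TFCP2L1, a naive pluripotency factor, was at 9.86 and 2.88 CPM (1.49), with 3.74 within set 1 and 0.14 within set 3. POU5F1, the OCT4 gene, was at 1061 CPM in ffEPSCs and 892 CPM in ESCs (0.25), SOX2 at 44.9 and 33.9 CPM (0.39) and NANOG at 175 and 132 CPM (0.40). Across the 25 ffEPSC cells r with LTR5-Hs was 0.29 for both TFAP2C and KLF4, 0.26 for POU5F1, 0.03 for NANOG and -0.29 for SOX2. Over 10243 genes, 5% had an r with LTR5-Hs under -0.39 and 5% over 0.42, so these values lie within the bulk of genes. Of the naive markers not among the activators, DNMT3L had an r of 0.78, above this range, and DPPA3 0.17. The part of the cells of small chromosome shift in these values was not tested.

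Genes that hold endogenous retroviruses silent had ratios on both sides of 0. All 20 chosen repressor genes were measured, 1 was 2-fold higher and 0 were 2-fold lower, with a median log2 ratio of -0.00 against 0.04 over all genes. Over all genes 8.3% were 2-fold higher and 5.84% lower, so counts of 1 and 0 among 20 are near the background. The one higher was MORC2, a partner of the HUSH silencing complex, at 19.1 CPM in ffEPSCs and 7.98 CPM in ESCs (1.16), with -0.20 within set 1. TRIM28, the corepressor that zinc finger proteins bring to retroviral sequences, was at 247 and 185 CPM (0.42), and SETDB1, the histone methyltransferase it recruits, at 12.5 and 15.8 CPM (-0.32). ZNF417, a zinc finger protein known to bind HERVK, was at 4.32 and 8.69 CPM (-0.86), and its paralog ZNF587 at 13.1 and 7.30 CPM (0.76), a pair between which reads may be shared. UHRF1, which guides maintenance DNA methylation, was at 20.3 and 37.9 CPM (-0.87), and DNMT1, the maintenance methyltransferase, at 129 and 178 CPM (-0.46). CBX5, which encodes heterochromatin protein HP1 alpha, was at 203 and 325 CPM (-0.68). Within set 1 and set 3 the log2 ratios were 0.55 and -1.64 for SETDB1, -0.32 and -0.12 for UHRF1, and -0.765 and -0.18 for CBX5. They were 0.53 and 0.56 for TRIM28, -1.24 and -2.71 for ZNF417, 1.35 and 0.42 for ZNF587, and -0.33 and -0.34 for DNMT1. Across the 25 ffEPSC cells r with LTR5-Hs was 0.08 for SETDB1, -0.07 for TRIM28, 0.15 for ZNF417, 0.07 for ZNF587, -0.38 for UHRF1, -0.45 for DNMT1 and -0.72 for CBX5. ATF7IP, a cofactor of SETDB1, had an r of -0.64 and was at 180 CPM in ffEPSCs and 115 CPM in ESCs (log2 ratio 0.65). Over 10243 genes, 5% had an r with LTR5-Hs under -0.39 and 5% over 0.42. DNMT1, CBX5 and ATF7IP lay under this range, as did SMARCAD1 (-0.52) and TASOR (-0.47). The other chosen repressors lay within it. How far these values depend on the cells of small chromosome shift was not tested.

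Genes whose levels were most like those of LTR5-Hs and HERVK-int over the 25 ffEPSC cells lay mostly on the raised chromosomes. Among 10243 genes, those most like LTR5-Hs were IFITM3, an antiviral membrane protein gene (r 0.83), WDHD1, a DNA replication factor gene (0.81), PCAT14 (0.80), FABP3, a fatty acid binding protein gene (0.79), and NDUFV1, a subunit of respiratory complex I (0.79). Of these 5, 4 lie on chromosomes 5, 11, 14, 20 or 22, where 19.5% of the 9685 compared genes with a known chromosome lie. WDHD1 was at 368 CPM in ffEPSCs and 139 CPM in ESCs, and its r over the other 20 cells, without the 5 of small shift, was 0.83. FABP3, on chromosome 1, was lower in ffEPSCs, at 20.5 CPM against 62.1 CPM in ESCs, and still had an r of 0.82 over the 20 cells. For IFITM3, NDUFV1 and PCAT14 the r with LTR5-Hs fell to 0.57, 0.58 and 0.29 over the 20 cells. Those most like HERVK-int were WDHD1 (0.82), PLAAT3, a phospholipase gene (0.76), GSTP1, a glutathione transferase gene (0.75), a row with no symbol (0.75) and NMRK2, a nicotinamide riboside kinase gene (0.75). No chromosome was found for the row with no symbol, and 3 of these 5 lie on the raised chromosomes. Those most like PCAT14 were DCK, a deoxycytidine kinase gene (0.86), the pseudogene KRT8P3 (0.82), RPS6KA1, a ribosomal S6 kinase gene (0.80), AARS1, an alanyl-tRNA synthetase gene (0.80), and ZNF766 (0.80), and 0 of these 5 lie there. Over the other 20 cells their r with PCAT14 lay between 0.04 and 0.48, and over the 18 at or above 0.3 in the mean shift between 0.12 and 0.54.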

How the data were processed

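The authors deposited raw whole-number counts per gene and per repeat name for each cell. Per the submitters' processing notes, reads were handled with Subread 2.0.6 with featureCounts, HISAT2 2.2.1 and SAMtools 1.6, on GRCh38 and CHM13. The sources used here do not say which build served which table, nor the repeat library, strand or counting of multi-mapping reads. Non-zero gene counts were mostly even (median 98.4% in ffEPSC cells and 98.5% in ESC cells), so mates of a pair may each count, which would make intervals for genes such as PCAT14 too narrow. Repeat counts were even in a median of 49.3% in ffEPSC cells and 49.8% in ESC cells. The extract protocol in the labels names a bulk RNA kit beside Smart-seq2.

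Groups came from the cell type in the labels. Counts were summed over the 25 ffEPSC and 16 ESC cells, with 0 cells removed, and scaled to CPM. Ratios added 1 CPM. Measured rows had at least 5 CPM (100 repeat CPM for repeats) in 1 library. Intervals are exact Poisson, conditional binomial or Clopper-Pearson at 95%. Doublets were not called. The 5 cells with little chromosome shift were under 0.3 both in the mean over the raised chromosomes and on chromosome 5, and 7 cells were under 0.3 in the mean alone. Rows most alike were the 5 genes and 5 repeats of highest r over ffEPSC cells. Named rows were the 6 HERVK rows, these rows, up to 6 members per list by size of ratio and up to 5 listed neighbours on each side of PCAT14. Other named list members were chosen after their values were seen. Members and lists were chosen with earlier results of these data known. The steps were tested on simulated data, alignments used BLAST 2.17.0, and other steps Python 3.11.15 with SciPy 1.17.1. Alternatives were another pseudocount, scaling, cell mean or median, and subsets of cells. Sequence of the PCAT14 transcripts is not reported here.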

Additional observations from a re-analysis of the deposited data

How the results depend on the processing

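Of 114 alternatives over 12 results, 0 reversed a direction, 31 moved by at most 0.5 of the width of the counting interval (0.1 for correlations and medians) and 83 by more. The cause was not tested. With 0.1 CPM added, log2 ratios were 5.88 for PCAT14. With the mean of cells, log2 ratios were 5.16 for LTR5-Hs, 1.08 for LTR5A and 4.05 for HERVK-int. With the median of cells, log2 ratios were 5.15 for LTR5-Hs, 1.18 for LTR5A, 1.53 for LTR5B, 1.41 for LTR5, 4.05 for HERVK-int and 7.10 for PCAT14. With scaling to gene counts, log2 ratios were 5.15 for LTR5-Hs and 4.07 for HERVK-int. With cells of set 1 alone, log2 ratios were 5.15 for LTR5-Hs, 1.29 for LTR5A, 1.33 for LTR5B, 1.68 for LTR5, 4.26 for HERVK-int and 5.70 for PCAT14. With cells of set 3 alone, log2 ratios were 4.53 for LTR5-Hs, 0.50 for LTR5A, 1.002 for LTR5B, 1.03 for LTR5, 3.54 for HERVK-int and 2.78 for PCAT14. With ESC cells under 300 CPM of POU5F1 left out, log2 ratios were 5.28 for LTR5-Hs, 0.81 for LTR5A, 1.31 for LTR5B, 4.32 for HERVK-int and 5.69 for PCAT14. With the 5 ffEPSC cells with little chromosome shift, log2 ratios were 4.36 for LTR5-Hs, 0.72 for LTR5A, 0.92 for LTR5B, 0.95 for LTR5, 3.48 for HERVK-int and 3.45 for PCAT14. With the other 20 ffEPSC cells, log2 ratios were 5.35 for LTR5-Hs, 0.97 for LTR5A, 1.57 for LTR5B, 1.34 for LTR5, 4.23 for HERVK-int and 5.66 for PCAT14. With the 7 ffEPSC cells under 0.3 in the mean shift, log2 ratios were 4.62 for LTR5-Hs, 0.81 for LTR5A, 1.02 for LTR5B, 0.96 for LTR5, 3.59 for HERVK-int and 4.51 for PCAT14. With the remaining 18 ffEPSC cells, log2 ratios were 5.38 for LTR5-Hs, 0.96 for LTR5A, 1.602 for LTR5B, 1.37 for LTR5, 4.27 for HERVK-int and 5.65 for PCAT14. With the highest cell of each state left out, log2 ratios were 5.27 for LTR5-Hs, 0.9988 for LTR5A, 1.52 for LTR5B, 4.13 for HERVK-int and 5.72 for PCAT14. The LTR5-Hs share in ffEPSCs minus that in ESCs, 38.2 percentage points, was 39.4 with the mean of cells, 35.4 with cells of set 1 alone, 38.7 with cells of set 3 alone, 41.3 with ESC cells under 300 CPM of POU5F1 left out, 36.4 with the 5 ffEPSC cells with little chromosome shift, 37.1 with the 7 ffEPSC cells under 0.3 in the mean shift and 39.5 with the highest cell of each state left out. The r of HERVK-int and LTR5-Hs over ffEPSC cells was 0.75 in set 2, 0.76 without the 2 farthest cells, 0.73 in the 20 cells and 0.72 in the 18 cells. The r of PCAT14 and LTR5-Hs over ffEPSC cells was 0.39 as Spearman rho, 0.39 in set 2, 0.63 without the 2 farthest cells, 0.29 in the 20 cells and 0.31 in the 18 cells. The r of PCAT14 and HERVK-int over ffEPSC cells was 0.37 as Spearman rho, 0.83 in set 4, 0.32 in set 2, 0.58 without the 2 farthest cells, 0.27 in the 20 cells and 0.30 in the 18 cells. The median log2 ratio of other ERVK repeats was 0.79 in set 1. The median log2 ratio of SVA repeats was 1.099 in set 1 and 0.84 in set 3. Settings with the other 20, the 7 and the 18 ffEPSC cells, those without the 2 farthest cells and the subtraction of PCAT14 counts were chosen after seeing the data. No paired analysis was possible because each state has 1 sample and no test was made. Sets 1 and 3 hold 3 and 2 ffEPSC cells. PCAT14 had 0 reads in 7 of 16 ESC cells, where a count of 0 allows up to 0.150 to 0.256 CPM in the cell.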
